A study of Mus musculus with 4 samples.

Results

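The BCL-2 family holds the proteins that decide whether the mitochondrial outer membrane of a cell stays intact or is opened during apoptosis. Of 10 family genes chosen by name, 9 were present among the 19938 mouse genes measured: the pro-survival genes Bcl2, Bcl2l1 and Mcl1, the pore-forming gene Bak1, and the BH3-only genes Bcl2l11, Pmaip1, Bbc3, Bid and Bad. Bax, the other pore-forming gene of the list, is not analysed here. Each of the 9 genes had 1 probe set, annotated to that gene symbol alone, and no filter on low values was applied, so every one of them was in the test. They were followed in bone marrow cells of C57BL/6N mice 8 h after 1 intraperitoneal injection of 50 µg lipopolysaccharide (LPS, a 1:1 mixture from E. coli K12 and S. minnesota; 2 arrays, replicates 1 and 2) or of phosphate-buffered saline (PBS; 2 arrays, replicates 1 and 3). The labels state no other allele or agent for either group, and they do not say whether an array stands for 1 mouse or for pooled mice, so the p-values measure the spread between these samples, which may be technical.

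As background, pro-survival members such as BCL-2, BCL-XL (the product of Bcl2l1) and MCL-1 hold BAX and BAK in check. BH3-only proteins, among them BIM (Bcl2l11), NOXA (Pmaip1), PUMA (Bbc3), BID and BAD, bind the pro-survival members or activate BAX and BAK directly, after which cytochrome c leaves the mitochondrion and caspases are activated. In marrow, lymphocytes are known to depend on BCL-2, maturing red cells and platelets on BCL-XL, and neutrophils and stem cells on MCL-1. Much of this control acts on the proteins, by cleavage, phosphorylation and degradation, which an RNA array does not measure.

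Values are log2 expression per probe set as the authors normalized them, and 1 unit is a doubling. The LPS arrays correlated at r = 0.997 and the PBS arrays at 0.995 (computed over genes, which are no independent replicates), and the median over genes lay between 8.01 and 8.03 on each array. Probe sets differ in brightness for reasons other than transcript amount, so results compare levels between arrays. Levels of different genes were used to pick which genes of a list without calls are named. They also served to mark dim genes and as filters in some alternatives. A gene was called at a limma adjusted p under 0.05 over all 19938 genes, which 730 genes (3.66%) reached, 476 higher after LPS (2.39%) and 254 lower (1.27%). With 2 arrays per group the smallest two-sided p of an exact permutation test is 0.333. Calls therefore rest on limma, which shares the spread across genes. A linear model without that sharing (unmoderated) is given beside some counts. It called 0 of all 19938 genes after adjustment, so its 0 for a list was fixed beforehand and says nothing about that list.

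None of the 9 members was called: 0 of 9 were higher and 0 of 9 lower after LPS in limma, beside 3.66% of all genes called. A list of 9 genes is too short for 0 calls to set it apart from that share. At an unadjusted p under 0.05 in limma there was 1 of 9, Bak1, beside 15.8% of all genes. The unmoderated linear model called 0 of 9 after adjustment, but it called 0 of all genes too. At an unadjusted p under 0.05 it had 1 of 9, Pmaip1, beside 2185 of all 19938 genes. The 2 LPS arrays lay on 1 side of the 2 PBS arrays in 4 of 9 members (Bcl2, Bak1, Pmaip1 and Bbc3), beside 44.9% of all genes. Over the 9 members the log2 differences ran from -0.16 to 0.42, with a median of -0.01, equal to the median of -0.01 over all genes. The median size of the difference, whatever its sign, was 0.115 log2 for the members and 0.0963 for all genes. The 95% interval of a member reached a median of 0.252 log2 to either side of its estimate.

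**Figure D1:**
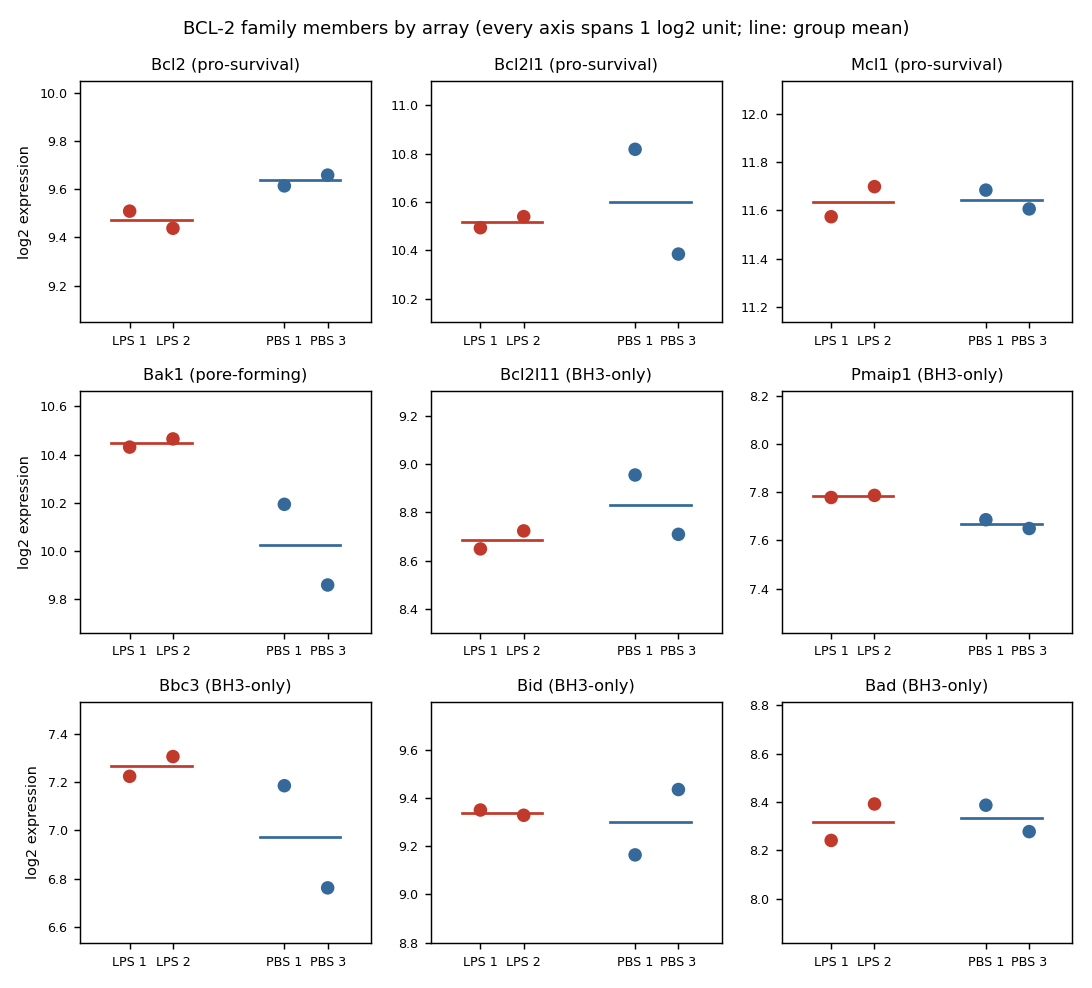
Log2 expression of the 9 BCL-2 family members on each array, 1 panel per gene, with LPS arrays (red) left of PBS arrays (blue) and a line at each group mean; every vertical axis spans 1 log2 unit. The 2 PBS arrays lie farther apart than the 2 LPS arrays in Bcl2l1, Bak1, Bcl2l11, Pmaip1, Bbc3 and Bid, and both LPS arrays lie above both PBS arrays in Bak1, Pmaip1 and Bbc3.

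The 3 pro-survival members had small negative estimates, and none passed. Bcl2 had log2 values of 9.51 and 9.44 on the LPS arrays, against 9.61 and 9.66 on the PBS arrays. Both LPS arrays were thus below both PBS arrays, by a narrow margin. The group means were 9.47 ± 0.05 after LPS and 9.64 ± 0.03 after PBS (SD, n = 2 each), a difference of -0.16 log2 (SE 0.0883, 95% interval -0.37 to 0.04, limma adjusted p = 0.441). The interval covers 0.775-fold to 1.03-fold.

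Mcl1, which encodes a short-lived protein whose level depends on continued synthesis, had 11.57 and 11.70 on the LPS arrays, against 11.68 and 11.61 on the PBS arrays. The groups overlapped, and the PBS values lay between those of the 2 LPS arrays. Its difference of -0.01 log2 (SE 0.0936, 95% interval -0.23 to 0.21, limma adjusted p = 0.985) was the smallest of the 9, and the interval covers 0.854-fold to 1.16-fold. Bcl2l1 had 10.49 and 10.54 after LPS, against 10.82 and 10.38 after PBS. Here the PBS arrays lay on either side of the LPS arrays, and the 0.434 log2 between the PBS arrays exceeded the difference of -0.08 between the groups (SE 0.141, 95% interval -0.41 to 0.24, limma adjusted p = 0.866). Without PBS replicate 1 the estimate for Bcl2l1 had the opposite sign (0.13, adjusted p = 0.689).

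Promoter sequence was available for 8 of the 9 members, all but Pmaip1. The windows of Mcl1, Bcl2l1 and Bbc3 are shown because they hold a match to a form of the NF-kappaB site (GGG, any 2 bases, then TTTCC). It lies on the strand opposite to the gene, so that the capitals read GGAAA, 2 bases, CCC. NF-kappaB is the transcription factor that LPS activates through TLR4. Each line gives the 250 bases before an annotated start (RefSeq, GRCm38.p6), 5′ to 3′ on the gene's strand, from chr3:95658471-95658720 (plus strand), chr2:152830718-152830967 (minus strand) and chr7:16309333-16309582 (plus strand).
Mcl1: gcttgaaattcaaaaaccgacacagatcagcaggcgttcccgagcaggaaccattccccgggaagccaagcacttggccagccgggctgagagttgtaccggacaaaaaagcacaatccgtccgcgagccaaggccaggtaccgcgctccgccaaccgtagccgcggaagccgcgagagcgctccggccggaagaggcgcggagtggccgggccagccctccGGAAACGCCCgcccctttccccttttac
Bcl2l1: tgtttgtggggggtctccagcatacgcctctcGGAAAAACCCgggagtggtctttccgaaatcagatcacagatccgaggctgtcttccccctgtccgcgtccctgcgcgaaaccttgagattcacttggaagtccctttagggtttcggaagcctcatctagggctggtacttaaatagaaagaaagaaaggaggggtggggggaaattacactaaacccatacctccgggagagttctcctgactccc
Bbc3: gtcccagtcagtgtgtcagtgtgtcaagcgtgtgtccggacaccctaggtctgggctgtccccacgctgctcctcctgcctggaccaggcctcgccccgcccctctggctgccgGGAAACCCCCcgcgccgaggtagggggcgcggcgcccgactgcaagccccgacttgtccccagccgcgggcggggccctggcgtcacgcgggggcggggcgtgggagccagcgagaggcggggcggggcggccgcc
The match ends 19 bases before the start in Mcl1, 209 in Bcl2l1 and 127 in Bbc3. Bcl2l1 and Bbc3 have 3 windows each, of which only the 1 shown holds the match. Searched on both strands, the motif was in 3 of 14 windows of the members (several starts per gene) and in 1.41% of all 32851 windows of this length. The interferon-related motifs of the ISRE type (GAAA, any 2 bases, then GAAA) and of the GAS type (TTCNNNGAA) were in 0 of 14 windows, beside 2.98% and 7.02% of all windows. The motifs were chosen after the values were seen, and a match describes letters only. None of these 3 genes was called with all 4 arrays.

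Bak1, whose product forms the outer membrane pore, had the largest difference of the 9 members. Its log2 values were 10.43 and 10.47 on the LPS arrays, against 10.19 and 9.86 on the PBS arrays. Both LPS arrays were higher, and the PBS arrays were 0.334 log2 apart where the LPS arrays were 0.034 apart. Group means were 10.45 ± 0.02 after LPS and 10.03 ± 0.24 after PBS (SD, n = 2 each). The difference was 0.42 log2, or 1.34-fold (SE 0.122, 95% interval 0.14 to 0.70, unadjusted p = 0.00921 by limma), and the adjusted p of 0.133 did not pass. Of all genes, 94.8% had a difference of that size or smaller. The estimate for Bak1 was 0.59 log2 without PBS replicate 1 and 0.25 without PBS replicate 3, so its size depends on which PBS array is kept. With 1 PBS array left, the 0.334 log2 between the PBS arrays is no longer part of the fit.

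Among the BH3-only genes, Bbc3 stood closest to Bak1. Bbc3 encodes PUMA, a target of p53, and had 7.22 and 7.31 after LPS, against 7.19 and 6.76 after PBS. LPS replicate 1 exceeded PBS replicate 1 by a narrow margin, while PBS replicate 3 was far lower than the other 3 arrays. The difference of 0.29 log2 (SE 0.14, 95% interval -0.03 to 0.62, limma adjusted p = 0.373) did not pass with all 4 arrays. It was 0.50 (adjusted p = 0.0343) without PBS replicate 1 and 0.08 (adjusted p = 0.82) without PBS replicate 3. With 1 PBS array left, the fit assumes that this array varies like the others.

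The remaining BH3-only genes differed by at most 0.15 log2 in size. Pmaip1, which encodes the MCL-1 antagonist NOXA, had 7.78 and 7.79 after LPS, against 7.69 and 7.65 after PBS. All 4 arrays lay close together and the groups did not overlap (0.11 log2, SE 0.0862, 95% interval -0.09 to 0.32, limma adjusted p = 0.608). Bcl2l11, which encodes BIM, the BH3-only protein that drives death after withdrawal of growth factors, had 8.65 and 8.72 after LPS, against 8.96 and 8.71 after PBS. PBS replicate 1 was high and the other 3 arrays were together (-0.15 log2, SE 0.108, 95% interval -0.40 to 0.11, limma adjusted p = 0.601).

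Bid encodes the protein that caspase-8 cleaves to link death receptors with mitochondria. It had 9.35 and 9.33 after LPS, against 9.16 and 9.43 after PBS, so the LPS arrays lay between the PBS arrays (0.04 log2, 95% interval -0.22 to 0.30, limma adjusted p = 0.927). Bad, whose product is held inactive by phosphorylation under growth factor signalling, had 8.24 and 8.39 after LPS, against 8.39 and 8.28 after PBS. Its groups overlapped as well (-0.02 log2, 95% interval -0.24 to 0.21, limma adjusted p = 0.972). By role, the median difference was -0.08 over the 3 pro-survival members, all of them negative, and 0.04 over the 5 BH3-only members, of which 3 were positive. No 95% interval of a member reached 2-fold in either direction, the widest bounds being 0.751-fold for Bcl2l1 and 1.63-fold for Bak1.

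**Figure D2:**
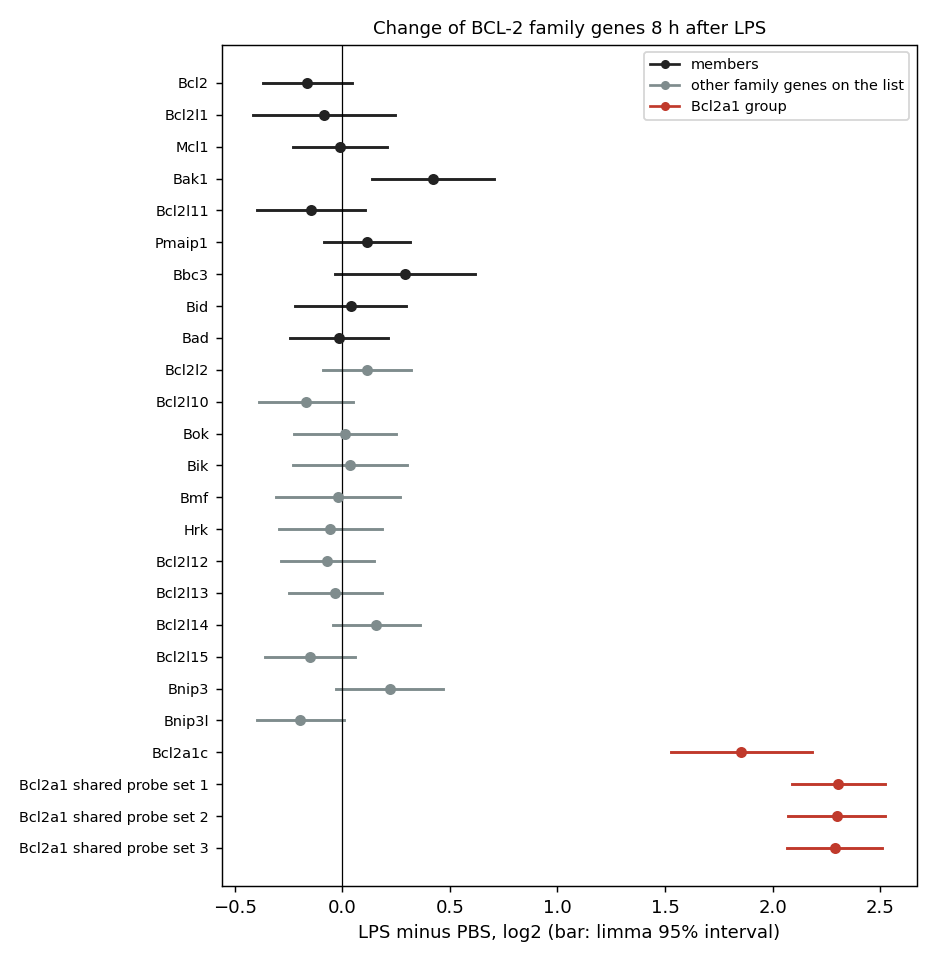
LPS minus PBS difference in log2 expression (points) with limma's 95% interval (bars) for the 9 members, the other 12 family genes of the list and the 4 probe sets of the Bcl2a1 group; the shared probe sets come from the fit over all probe sets. The members and the other family genes lie between -0.19 and 0.42, and the 4 Bcl2a1 probe sets between 1.86 and 2.31.

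The rest of the family gave the same counts, apart from 1 group of paralogs. Of 15 other family genes listed, 12 were measured. Of these 0 were higher and 0 lower in limma, beside 2.39% and 1.27% of all genes. With 12 genes, 0 calls do not set the list apart from those shares. At an unadjusted p under 0.05 there were 0 of 12, beside 15.8% of all genes. The unmoderated model called 0, and the list's median was -0.03. The pro-survival genes Bcl2l2 (0.11), which encodes BCL-W, and Bcl2l10 (-0.17) did not pass, nor did the pore-forming relative Bok (0.01). The BH3-only genes Bik (0.04), Bmf (-0.02) and Hrk (-0.06) did not either. The mitophagy receptor genes Bnip3 (0.22) and Bnip3l (-0.19) did not pass either. Bnip3 was 0.09 with its 2 probe sets averaged, 0.10 without PBS replicate 1 and 0.35 without PBS replicate 3. Bnip3l, which acts in the removal of mitochondria from maturing red cells, had adjusted p = 0.33. The relatives Bcl2l12 (-0.07), Bcl2l13 (-0.03), Bcl2l14 (0.16) and Bcl2l15 (-0.15) completed the list. Bcl2l10 (5.55 after LPS and 5.72 after PBS) and Bcl2l15 (5.64 and 5.79 in the same order) lay below the array's lower quartile, which was between 6.66 and 6.72, and their signal was not set against background.

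The exception was Bcl2a1, the A1 genes. The A1 protein is a pro-survival relative of MCL-1 that is made in blood cells, and A1 is a known target of NF-kappaB. The mouse has several nearly identical copies, and whether each of them, Bcl2a1c included, makes a working A1 protein was not tested. In the platform annotation 3 probe sets carry the symbols of Bcl2a1a, Bcl2a1b, Bcl2a1c and Bcl2a1d together, so they belong to no single copy, and 1 more probe set carries Bcl2a1c alone. Bcl2a1c was not on the list and was named after its value was seen.

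Bcl2a1c had log2 values of 9.69 and 9.25 on the LPS arrays, against 7.59 and 7.63 on the PBS arrays. Both LPS arrays were well above both PBS arrays, with LPS replicate 1 the higher of the 2. The difference was 1.86 log2, a 3.62-fold rise (SE 0.141, 95% interval 1.53 to 2.18, limma adjusted p = 0.00032). The first shared probe set had 10.45 and 10.51 after LPS, against 8.17 and 8.18 after PBS, the second 10.41 and 10.51 against 8.15 and 8.18, and the third 10.50 and 10.57 against 8.23 and 8.26. In all 3 the arrays of a group were almost level and the groups were far apart. In a fit over all 35556 probe sets, where 418 (1.18%) were called and 355 (0.998%) were higher, the shared probe sets rose by 2.31, 2.30 and 2.29 log2, or 4.94-fold, 4.92-fold and 4.88-fold (SE at most 0.0892, limma adjusted p = 0.00144 for each). The first and the second are equal on LPS replicate 2 to the digits deposited, so these probe sets are not independent measurements. A rise of 1 copy, Bcl2a1c included, and a rise of several copies cannot be told apart with these probe sets. Under the unmoderated model the adjusted p was 0.369 for Bcl2a1c and at most 0.291 for the shared probe sets.

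**Figure D3:**
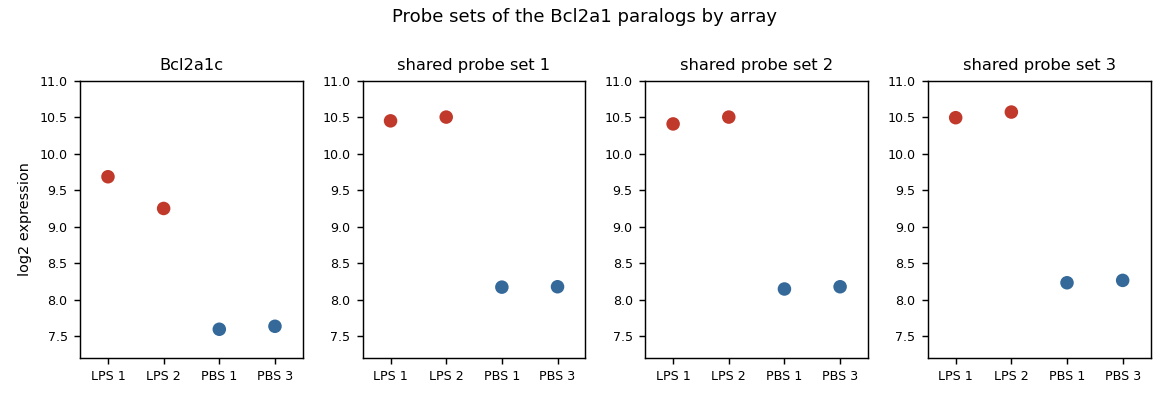
Log2 expression of the probe set of Bcl2a1c and of the 3 probe sets shared by the Bcl2a1 copies, by array, LPS (red) left of PBS (blue). In each panel both LPS arrays lie above both PBS arrays, by 1.86 to 2.31 log2 between the group means.

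How alike the copies are can be seen in their promoters, of which those of Bcl2a1a (chr9:88956670-88956919, plus strand) and Bcl2a1c (chr9:114329885-114330134, plus strand) are shown, again as the 250 bases before the annotated start (RefSeq, GRCm38.p6). Capitals mark the longest run of bases that the windows of all 4 copies share, 31 bases.
Bcl2a1a: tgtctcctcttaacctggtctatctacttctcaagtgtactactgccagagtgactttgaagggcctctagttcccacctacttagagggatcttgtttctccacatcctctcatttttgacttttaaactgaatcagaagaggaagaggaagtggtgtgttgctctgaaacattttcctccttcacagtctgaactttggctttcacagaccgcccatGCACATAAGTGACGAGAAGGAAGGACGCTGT
Bcl2a1c: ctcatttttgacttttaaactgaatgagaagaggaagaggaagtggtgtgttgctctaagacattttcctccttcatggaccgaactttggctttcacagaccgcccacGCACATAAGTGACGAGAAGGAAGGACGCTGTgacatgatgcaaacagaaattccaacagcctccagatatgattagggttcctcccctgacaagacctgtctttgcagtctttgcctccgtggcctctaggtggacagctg
The run ends 1 base before the annotated start in Bcl2a1a and Bcl2a1d, 45 bases before it in Bcl2a1b and 111 in Bcl2a1c, so the annotated starts are not at the same point of the shared sequence. It was in 4 of the 32851 windows, those of the 4 copies. In local alignments of the 300-base windows, identity between copies ran from 93.2% (Bcl2a1c and Bcl2a1d, over 190 positions) to 99.2% (Bcl2a1a and Bcl2a1b, over 256 positions). None of the 3 motifs searched above was in these 4 windows. Other forms of these sites, and sequence outside the windows, were not searched.

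Downstream of mitochondria, no gene of the apoptosis machinery was called, beside 3.66% of all genes. Lists of 6 to 10 genes are too short for 0 calls to set them apart from that share. The counts at an unadjusted p under 0.05 stand beside 15.8% of all genes. Of 10 measured genes of the apoptosome and caspases 0 passed in limma (1 at an unadjusted p under 0.05, Casp8, and 0 called by the unmoderated model), with a median of 0.04. Cycs, which encodes cytochrome c, had 0.23 (adjusted p = 0.517), with 0.06 to 0.40 when 1 array was left out: 0.08 without LPS replicate 1, 0.38 without LPS replicate 2, 0.06 without PBS replicate 1 and 0.40 without PBS replicate 3. Casp8, the protease of death receptors that cleaves BID, had 11.45 and 11.48 after LPS, against 11.06 and 11.20 after PBS (0.33, adjusted p = 0.122). Of 7 caspase inhibitors 0 passed, and 3 of 7 had an unadjusted p under 0.05, beside 15.8% of all genes. The unmoderated model called 0 and the list's median was 0.01. Birc6 had -0.01 and Birc5 -0.11. Birc3 (0.33, limma adjusted p = 0.133) and Birc2 (0.24, limma adjusted p = 0.249) had an unadjusted p under 0.05. Both were named after their values were seen. Cflar, named after its value was seen, encodes the caspase-8 inhibitor FLIP. It had 9.86 and 9.94 after LPS, against 9.55 and 9.42 after PBS, and was close to the threshold (0.41 log2, SE 0.094, limma adjusted p = 0.0632). Of 6 genes of MCL-1 protein turnover 0 passed (1 at an unadjusted p under 0.05 and 0 by the unmoderated model), with a median of -0.09. The ubiquitin ligase genes Huwe1 (-0.05) and Btrc (-0.18) did not pass, and the gene under 0.05 was Cdc20, named after its value was seen (-0.24, adjusted p = 0.229).

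Upstream, 3 of 10 measured death receptor and necroptosis genes rose and 0 fell, beside 2.39% of all genes higher and 1.27% lower, and 5 of 10 had an unadjusted p under 0.05, beside 15.8% of all genes. The list's median was 0.22. Tnfsf10, which encodes the death ligand TRAIL, had 10.003 and 9.932 after LPS, against 8.043 and 8.260 after PBS (1.82 log2, SE 0.104, limma adjusted p = 7.46e-05). Mlkl, the executor of necroptosis, rose by 1.08 log2 (adjusted p = 0.00108), and Tnfrsf10b, a TRAIL receptor, by 0.47 (adjusted p = 0.034). Without LPS replicate 1, LPS replicate 2 or PBS replicate 3, in turn, Tnfrsf10b did not pass (adjusted p = 0.136, 0.1 and 0.0643). The rises of Tnfsf10 and Mlkl passed with any 1 array left out.

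Of 11 transcription factors and stress genes tied to the BH3-only genes 4 rose and 0 fell, beside the same 2.39% and 1.27% of all genes. An unadjusted p under 0.05 was found in 6 of 11, beside 15.8% of all genes. Among these Foxo4, named after its value was seen, was lower (-0.30) and the others were higher. Of the 11 genes 6 had positive and 5 negative differences. The list's median was 0.21. The interferon regulatory factor gene Irf1 rose by 1.30 log2 (SE 0.104, limma adjusted p = 0.000427) and the stress-induced factor gene Atf3 by 0.85 (adjusted p = 0.00175). With the probe sets of a gene averaged, the rise of Irf1 was 0.71 (adjusted p = 0.0043). Ddit3, which encodes CHOP, rose by 0.50 (adjusted p = 0.0381) and its target Trib3 by 0.44 (adjusted p = 0.0486). Ddit3 and Trib3 each lost the call when any of 3 arrays was left out (adjusted p up to 0.158 and 0.245). Of 12 measured genes around p53, 2 rose and 0 fell, again beside 2.39% and 1.27% of all genes. The p53 gene itself (Trp53) and its target Cdkn1a, also on the list, are not analysed here. An unadjusted p under 0.05 was found in 7 of 12, beside the same 15.8%. Among these Sesn1, named after its value was seen, was lower (-0.23) and the others were higher. The list's median was 0.31. Mdm2, the ligase gene that p53 induces against itself, had 10.17 and 10.15 after LPS, against 9.77 and 9.69 after PBS (0.42, adjusted p = 0.0457). Aen, a p53-induced nuclease gene, rose by 0.57 (adjusted p = 0.0227). Without LPS replicate 2 neither passed (adjusted p = 0.16 for Mdm2 and 0.111 for Aen). Without LPS replicate 1 or PBS replicate 3 Mdm2 did not pass either (0.177 and 0.0854). With all probe sets in the fit Tnfrsf10b, Ddit3, Trib3, Mdm2 and Aen did not pass (adjusted p from 0.105 to 0.158). Under the unmoderated model no gene of these lists passed. Bbc3 and Pmaip1, p53 targets among the members, are given above.

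**Figure D4:**
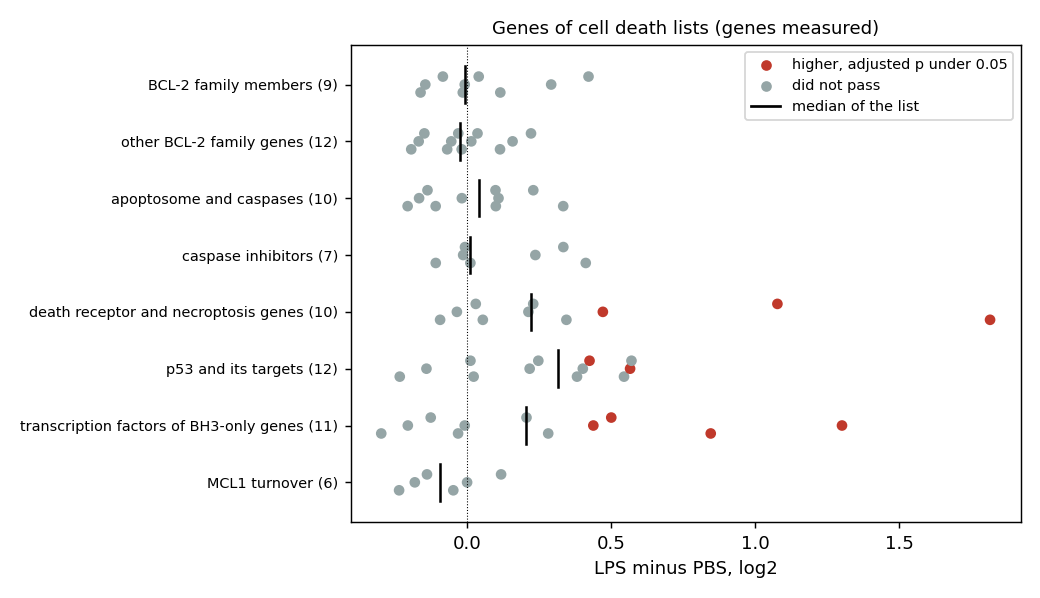
LPS minus PBS difference in log2 expression of each measured gene (points) of the 8 cell death lists, with the list's median as a black line; red points passed at a limma adjusted p under 0.05. Called genes lie in 3 lists only, with 3, 2 and 4 genes, and the BCL-2 family members centre on -0.01.

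Marker genes of marrow cell types differed between arrays, and their part in the members' values was not tested. In bulk marrow, fewer cells of a type and less RNA per cell cannot be told apart. As the median deviation of a list from its genes' own means, mature B-cell markers (9 of 10 measured) stood at -0.32 and 0.08 on LPS replicates 1 and 2, against 0.14 and 0.14 on PBS replicates 1 and 3, and Fcer2a (-1.61) and Cr2 (-0.75) fell. Bcl2, a gene of lymphocytes, deviated by -0.05 and -0.12 on the LPS arrays, against 0.06 and 0.10 on the PBS arrays. T-cell markers (8 of 10) stood at -0.03 and -0.15 after LPS, against 0.11 and 0.06 after PBS, and Cd8b1 (-0.52) fell. Erythroid markers (8 of 10) stood at -0.15 and -0.05 after LPS, against 0.21 and 0.00 after PBS, and Bcl2l1 at -0.07 and -0.02 after LPS, against 0.26 and -0.17 after PBS. Over the erythroid list the mean level ran from 11.45 to 11.52 after LPS and from 11.60 to 11.77 after PBS.

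Myeloid markers are given beside Mcl1 and the Bcl2a1 group, and their part in those values was not tested either. Mature neutrophil markers (10 of 10) stood at -0.01 and -0.20 after LPS, against 0.13 and 0.01 after PBS. Among them Ly6g (-1.14) and Retnlg (-0.76) fell and the decoy receptor gene Il1r2 (1.20) rose. Their mean level ran from 11.89 to 12.12 after LPS and from 12.13 to 12.28 after PBS. Neutrophil precursor markers (9 of 10, 0 called) stood at 0.01 and -0.18 after LPS, against 0.14 and 0.09 after PBS. Monocyte and macrophage markers (8 of 10) stood at 0.06 and -0.05 after LPS, against -0.09 and 0.02 after PBS, with Fcgr1 (1.57) and Adgre1 (0.56) higher and Cd163 (-2.41) lower.

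The 2 PBS arrays, which lay apart in Bak1 and Bbc3, also differed in markers, whose part in those values was not tested. Endothelial and stromal markers (10 of 10) stood at 0.05 and 0.03 after LPS, against -0.09 and 0.10 on PBS replicates 1 and 3. The 2 called genes of this list, Tek (-0.89) and Lepr (-0.59), were lower. The list's median difference was 0.07, with 6 genes positive and 4 negative. Among the positive ones were Emcn (0.52) and Cdh5 (0.36), not called and named after their values were seen. Of this list Col1a1 had 13.02 and 12.90 after LPS, against 11.99 and 13.33 after PBS, and Pdgfra had 9.74 and 9.62 after LPS, against 8.61 and 9.56 after PBS (both named after their values were seen). Megakaryocyte markers (7 of 10, 0 called) stood at -0.02 and -0.02 after LPS, against 0.08 and -0.09 after PBS. Bak1 deviated by 0.19 and 0.23 on the LPS arrays, against -0.04 and -0.38 on the PBS arrays, and Bbc3 by 0.10 and 0.19, against 0.07 and -0.36. Early B-cell markers (10 of 10) stood at -0.32 and 0.05 after LPS, against 0.13 and 0.16 after PBS, and Dntt (-0.55) fell. Natural killer cell markers (10 of 10) stood at 0.09 and -0.15 after LPS, against -0.05 and 0.04 after PBS. Of these 2 were called higher, Gzma (1.17) and Prf1 (0.50, named after its value was seen). The 2 called lower were Klrd1 (-0.89) and Klra8 (-0.83).

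**Figure D5:**
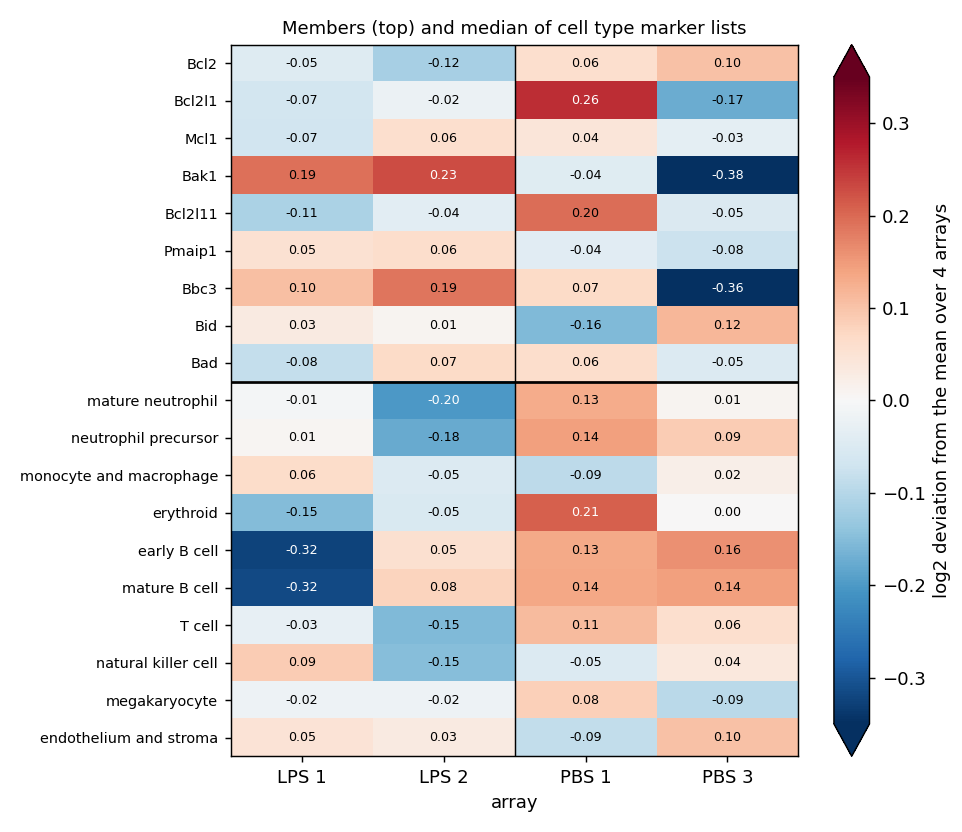
Deviation of each member from its own mean over the 4 arrays (upper rows) and the median deviation of each cell type marker list (lower rows), in log2 units, with LPS arrays left of PBS arrays; the numbers are the plotted values. Bak1 and Bbc3 are lowest on PBS replicate 3 (-0.38 and -0.36), and B-cell markers are lowest on LPS replicate 1 (-0.32).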

How the data were processed

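Total RNA of each marrow sample was measured on 1 Affymetrix Mouse Gene 1.0 ST array. The deposited values are log2 expression per probe set, made with RMA per the submitters' processing notes. Its version is not given in the sources used here, and the log2 scale was read from the values (2.76 to 14.52). Of 35556 probe sets, 21789 carried exactly 1 gene symbol in the platform annotation; the brightest stood for each of 19938 genes. LPS was compared with PBS by limma 3.58.1 (lmFit, eBayes, two-sided, Benjamini-Hochberg over all genes) in R 4.3.3, with 2 residual and 5.59 prior degrees of freedom and no covariate. The fit was tested on simulated data with planted changes larger than any difference of the members. That test says nothing about changes of the members' size. Depth does not apply to arrays, and their number limits the precision.

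The members and lists were chosen with earlier results of these data known. All members and measured family genes were named, and up to 6 called genes (otherwise the 2 with the highest mean level) of each other cell death list, with up to 3 called genes of a marker list. Alternatives were other moderation, filters, normalization and probe set choices and leaving out each array. Sequences are from RefSeq tables (GRCm38.p6) and were aligned with Biopython 1.88. Figures used matplotlib 3.10.9.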

Additional observations from a re-analysis of the deposited data

How the results depend on the processing

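The absence of a called member held under every alternative tried except leaving out PBS replicate 1, where Bak1 and Bbc3 passed: leaving out 1 array at a time gave 0 to 2 members higher and 0 lower. Without PBS replicate 1 the fit holds no spread between PBS arrays, which limits what those passes mean. Of 106 values of single members under alternatives, 7 changed sign. The members' median ran from -0.07 to 0.05 when 1 array was left out. With 1 array left out, the estimates that changed sign ran from -0.30 to 0.13 for Bcl2l1, -0.07 to 0.05 for Mcl1, -0.10 to 0.18 for Bid, -0.09 to 0.06 for Bad, -0.09 to 0.12 for Bok, -0.09 to 0.17 for Bik, -0.19 to 0.15 for Bmf, -0.14 to 0.03 for Hrk, -0.10 to 0.03 for Bcl2l13 and -0.03 to 0.01 for Birc6. Bad was 0.00 after quantile normalization. Over all genes, leaving out 1 array gave 385 to 696 higher and 127 to 423 lower. The unmoderated model called 0 higher and 0 lower (2185 genes at an unadjusted p under 0.05), an adjusted p under 0.01 left 286 higher and 58 lower, and with all probe sets in the fit 63 were lower. The cause was not tested. Of 12 alternatives for Bcl2a1c and 6 for each shared probe set (trend and robust eBayes, the unmoderated model and 1 array left out), only the unmoderated model ended the call; these settings were chosen after seeing the data. Signal was not set against background, which limits dim genes to an unknown extent. No paired analysis was possible because the groups share only replicate number 1.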
